A study of Mus musculus with 564 samples.

Results

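Cis-regulatory elements (CREs) that lost acetylation of histone H3 at lysine 27 (H3K27ac) after lipopolysaccharide (LPS) were followed in bone marrow-derived macrophages (BMDMs). The loss reached a set cut at every LPS time, and any fall after interleukin 4 (IL-4) stayed short of that cut. These 2598 of 59190 CREs (4.39%) were selected on the libraries of cells pre-treated with the vehicle DMSO. A CRE belonged to the set if the log2 of its mean value (plus 5) was lower than in untreated cells (UT) by at least 1 at 30 min, 1 h, 2 h and 4 h of LPS, and if none of the 4 IL-4 differences reached -1. The label of the set held in the data it came from: all 8 LPS libraries with DMSO lay below both UT libraries at 2598 of the 2598 CREs, as they did at 11258 of all CREs, which the rule makes likely and which is given as a description.

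The cells were macrophages grown from the bone marrow of wild type mice, and H3K27ac was measured by ChIP-seq with 1 antibody. All groups shared a pre-treatment of 1 h, with DMSO or with a clinical kinase inhibitor (CKI, 58 compounds), followed by no stimulus (UT) or by 10 ng/mL of LPS or IL-4 for 30 min, 1 h, 2 h or 4 h. The 18 DMSO libraries formed 9 groups of 2. The CKI libraries were 73 UT libraries, 62, 63, 59 and 57 LPS libraries from 30 min to 4 h, and 60, 59, 58 and 55 IL-4 libraries at the same times. Most compounds had 1 library per stimulus and time, and 36 libraries of 24 compounds, titled with a suffix b, were a further library of the same compound, stimulus and time that was counted separately. No source says whether these came from another culture. Thus CKI libraries of 1 group differ in compound and concentration, and the sources used here do not say how many animals the libraries came from. The LPS and IL-4 fits below hold compound as a term, so their p-values measure a difference against the spread left between libraries within compounds. In the comparison of inhibitor families, a p-value measures a difference against the spread between compounds.

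H3K27ac marks nucleosomes at active promoters and enhancers and is lost when acetyltransferases leave a site or deacetylases act on it. LPS binds TLR4 and activates NF-kB, AP-1 and interferon regulatory factors, which build new enhancers and promoters within minutes, while many enhancers that were active in the resting macrophage lose acetylation. IL-4 acts through STAT6 and induces the genes of alternative activation. In a bulk ChIP-seq library, fewer cells that carry the mark and less mark per cell cannot be told apart.

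Values are reads per CRE as scaled by the authors, called normalized reads below, and a value is a sum over the width of the CRE. Contrast, the median of the strongest 10% of CREs divided by that of the weakest 10%, ranged from 53.0 to 134 in the DMSO libraries and from 3.34 to 67.2 in the CKI libraries, with a median of 17.6. The CKI differences below are smaller than the DMSO differences, which chose the set and are large by that choice, and the part of contrast in this was not tested. The 30 min LPS library of PH797804 stood apart with 507 of the 2598 CREs at 0, and 17 CKI libraries had a contrast under 6. The promoters of macrophage markers carried the mark, with a sum of 5335 and 5342 normalized reads over the 7 marker genes that have a promoter CRE (among them Spi1, Lyz2, Itgam and Cd14) in the UT libraries with DMSO, 3839 to 5454 after LPS and 4191 to 4971 after IL-4. Marker promoters of other cell types were lower. The sums in UT were 71 and 100 for neutrophils (3 of 8 genes), 119 and 131 for T cells (1 of 8), 54 and 88 for B cells (3 of 6), 6 and 8 for dendritic cells (1 of 6), 3 and 7 for mast cells (1 of 5) and 4 and 6 for fibroblasts (2 of 6). The neutrophil and mast cell sums reached 228 and 103 after LPS, none of these markers was at 0 in every DMSO library, and the part of other cells in the results was not tested.

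The sequences at the centres of 4 of the CREs with the deepest losses are shown first, as a description. Each is 200 bases of mm10, plus strand, with matches to the 21 motifs searched (given below) in capitals. The Cxcl12 CRE (chr6:117431379-117431578) is intergenic, 262902 bp downstream of the gene start, and its window holds CACCTG, the ZEB-type E-box on the minus strand. Of the CREs nearest to Mef2a, CRE 1 (chr7:67461979-67462178) lies 89221 bp upstream of the gene and holds a RUNX match on the minus strand and 3 E-boxes. CRE 2 (chr7:67442433-67442632) lies 69675 bp upstream and holds a C/EBP site and a match to the MEF2 pattern CTANNNNTA. This pattern leaves its 4 middle bases open and was found in 17.6% of all CREs. The Ivns1abp CRE (chr1:151287645-151287844) is intergenic, 56732 bp upstream, and holds an ISRE, an AP-1 site and a C/EBP site that overlaps a MAF site.
Cxcl12: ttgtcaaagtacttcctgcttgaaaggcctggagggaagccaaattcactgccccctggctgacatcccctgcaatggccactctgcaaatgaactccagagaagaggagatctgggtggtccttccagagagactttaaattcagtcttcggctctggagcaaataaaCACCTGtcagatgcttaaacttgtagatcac
Mef2a CRE 1: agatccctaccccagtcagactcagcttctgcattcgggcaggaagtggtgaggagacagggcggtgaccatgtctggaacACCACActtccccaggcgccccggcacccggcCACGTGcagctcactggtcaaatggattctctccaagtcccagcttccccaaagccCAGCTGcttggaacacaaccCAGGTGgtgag
Mef2a CRE 2: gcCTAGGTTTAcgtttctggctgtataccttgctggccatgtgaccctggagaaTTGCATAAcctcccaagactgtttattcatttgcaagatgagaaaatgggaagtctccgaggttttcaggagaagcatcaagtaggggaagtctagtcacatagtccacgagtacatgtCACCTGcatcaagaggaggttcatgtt
Ivns1abp: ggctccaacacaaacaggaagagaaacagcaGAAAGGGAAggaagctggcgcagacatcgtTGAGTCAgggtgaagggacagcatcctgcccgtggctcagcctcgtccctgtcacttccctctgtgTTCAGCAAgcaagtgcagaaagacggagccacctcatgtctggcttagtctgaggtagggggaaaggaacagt

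With DMSO, the median CRE of the set carried 165.5 and 159 normalized reads in the UT libraries, against medians of 37 and 35 over all CREs. After LPS it carried 46 and 51 at 30 min, 41 and 39 at 1 h, 33 and 36 at 2 h and 44 and 40 at 4 h. After IL-4 it carried 151 and 143 at 30 min, 147 and 156.5 at 1 h, 150 and 158 at 2 h and 167 and 167 at 4 h. The set thus stood above the typical CRE before the stimulus and near it after LPS, while the IL-4 libraries stayed close to UT. These values chose the set. The rule allowed falls short of -1 after IL-4, and 1365 of the 2598 CREs had all DMSO IL-4 differences above -0.5. The median DMSO difference was -1.55, -1.78, -1.96 and -1.70 from 30 min to 4 h of LPS and -0.24, -0.23, -0.19 and -0.07 after IL-4.

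The depth of the loss varied within the set. With DMSO, 232 CREs were at or below -2 at all 4 times, 1575 were so at 1 or more times and 204 reached -3. The lowest time was 30 min at 361 CREs, 1 h at 528, 2 h at 1221 and 4 h at 488, and 1818 CREs were closer to UT at 4 h than at 2 h. The 3 CREs just inside the rule were near Ivns1abp, Cyp4f18 and Eno1, and the 3 just outside were near Lmo2, Exoc3l2 and Snx9. At the Cyp4f18 CRE, the value fell from 76 and 70 in UT to 41 and 27 at 30 min, and at the Lmo2 promoter, just outside, from 28 and 24 to 5 and 16. The margin of the set therefore held weak CREs with small falls.

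**Figure D1:**
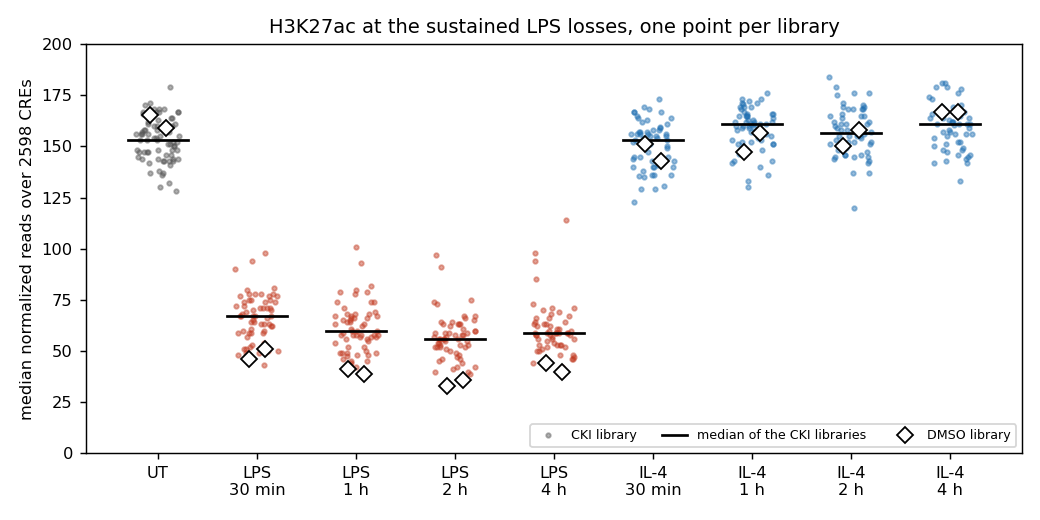
Median of normalized reads over the 2598 CREs (y axis) in every library, by stimulus and time (x axis). Diamonds are the 2 DMSO libraries of each group, dots are CKI libraries and black bars the median of the CKI libraries. The highest LPS library with a CKI stands at 114, below the lowest UT library with a CKI at 128.

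The CKI libraries took no part in the choice of the set and show the same CREs in other samples of the same stimuli. Over the set, the median of a CKI library was 128 to 179 in UT (median library 153). It was 43 to 98 at 30 min of LPS, 39 to 101 at 1 h, 39 to 97 at 2 h and 42 to 114 at 4 h. After IL-4 it was 123 to 173, 130 to 176, 120 to 184 and 133 to 181 at the 4 times. No LPS library reached the range of the UT libraries, and the IL-4 and UT ranges overlapped.

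In a limma fit over the whole set of CKI libraries with compound and condition as terms, H3K27ac was lower after LPS at 2469 of the 2598 CREs at 30 min, where 18.9% of all 59167 CREs tested were lower (adjusted p under 0.01 and a log2 difference beyond 0.5). At 1 h it was lower at 2516 (all CREs: 19.2%), at 2 h at 2509 (23%) and at 4 h at 2537 (20.8%). No CRE of the set was higher by limma at any of the 4 times, also at an unadjusted p under 0.05. The choice on LPS falls with DMSO makes a higher call unlikely, and the share of all CREs called higher is not given here. Of all 10440 promoter CREs, 9.19%, 10.6%, 11.5% and 9.71% were called higher from 30 min to 4 h. The median log2 difference of the set was -1.15, -1.24, -1.34 and -1.22, and that of all CREs tested was 0.11, 0.12, 0.08 and 0.04. H3K27ac was lower at all 4 times at 2415 CREs of the set (93.0%), where 11.5% of all CREs tested were, and 24 CREs were called at no time. The cut of 0.5 is smaller than the fall of 1 that chose the set. With a cut of 1, 1652, 1847, 1936 and 1831 CREs of the set were lower from 30 min to 4 h. The shares of all CREs at that cut are not given here. Leaving out the 30 min library of PH797804 gave 2453 CREs lower at 30 min, and leaving out the 17 libraries of low contrast gave 2500, 2535, 2529 and 2559.

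**Figure D2:**
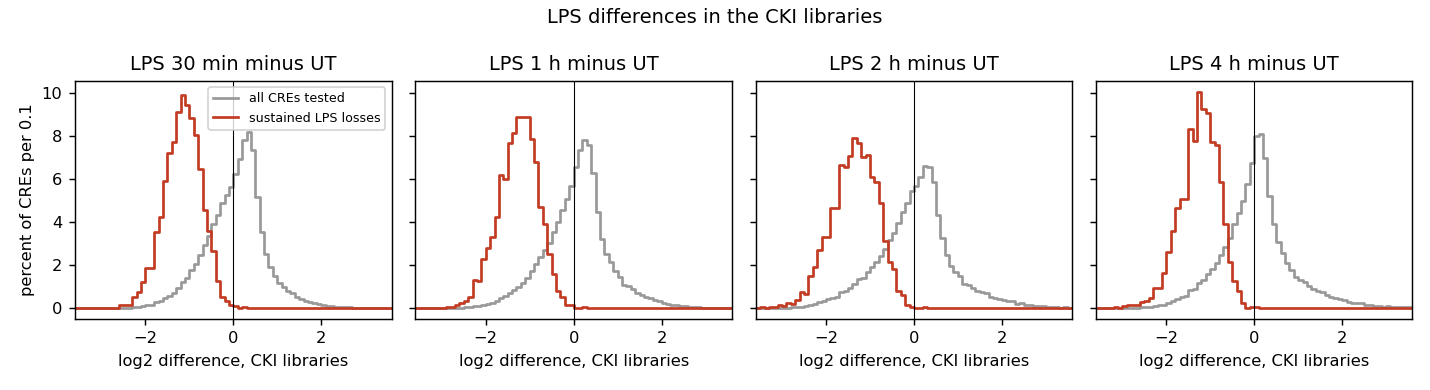
Share of CREs (percent per 0.1, y axis) by the log2 difference between LPS and UT in the CKI libraries (x axis), 1 panel per time, for the 2598 CREs of the set in red and all CREs tested in grey. The set centres between -1.15 and -1.34 and all CREs close to 0.

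The loss was present in every block of compounds. In the column order of the table the CKIs form 6 consecutive blocks with different contrast, which the labels do not name, and the fit was repeated within each. The median difference of the set lay between -1.01 and -1.43 over the blocks and times, and 2021 to 2542 of its CREs were lower. Over all CREs tested, the medians within the blocks lay between -0.12 and 0.23, and 14.8% to 22.6% were lower. At 2575 of the 2598 CREs the mean LPS difference was below 0 in all 6 blocks, a count that is not given here for all CREs.

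Stronger CREs lost more on the log2 scale. In 4 groups of near equal size by value in UT with DMSO, the lowest (12 to 88 normalized reads) had a median CKI difference of -0.85, the next (88.5 to 163) of -1.18, the next (163.5 to 309.5) of -1.41 and the highest (310 to 1760.5) of -1.57. Lower at all 4 times were 495 of 654, 630 of 650, 640 of 644 and 650 of 650. Across the 2598 CREs, which share their libraries, the UT value with DMSO and the mean CKI difference had r = -0.68. The added 5 shrinks differences of weak CREs, wide CREs have larger sums, and the part of the scale in this order was not tested. The mean LPS differences with DMSO and with CKIs, which share no library, had r = 0.79, and those for IL-4 had r = 0.91 across the same CREs.

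The largest mean fall over the 4 times in the CKI libraries was at an intergenic CRE whose nearest gene start is that of Cxcl12, the chemokine that binds Cxcr4 (chr6:117430358-117432601). With DMSO it carried 554 and 522 normalized reads in UT, 36 and 55 at 30 min of LPS, 34 and 38 at 1 h, 20 and 39 at 2 h and 52 and 41 at 4 h. After IL-4 its 8 libraries ranged from 288 to 394. No LPS library came near the UT or IL-4 libraries. With CKIs it ranged from 224 to 565 in UT (median 444) and from 15 to 89 at 2 h of LPS (median 44), a log2 difference of -3.21 ± 0.065 (SE, adjusted p = 3.13e-195). Its IL-4 difference at 2 h was -0.67, so it also fell after IL-4, to a smaller extent.

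Mef2a, a MADS-box transcription factor of muscle, neurons and myeloid cells, was nearest to 2 of the 12 deepest CREs. CRE 1 (chr7:67461189-67462969) carried 791 and 846 in UT with DMSO, 162 and 213 at 30 min of LPS, 122 and 98 at 1 h, 33 and 43 at 2 h and 63 and 61 at 4 h. The values fell up to 2 h and were still low at 4 h. With CKIs the log2 difference was -2.02 at 30 min, -3.46 ± 0.064 at 2 h (adjusted p = 2.87e-211) and -3.13 at 4 h, with 409 to 847 in UT and 24 to 163 at 2 h. CRE 2 (chr7:67441734-67443332) carried 294 and 284 in UT and 22 and 14 at 2 h with DMSO, and its CKI difference at 2 h was -2.83 ± 0.081.

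The other CREs among the 12 deepest were near genes of varied function. Csad, an enzyme of taurine synthesis, had a promoter CRE (chr15:102191747-102194007) with 420 and 407 in UT, 14 and 39 at 2 h of LPS and 599 and 749 at 2 h of IL-4. This CRE moved in opposite directions with the 2 stimuli: -2.51 ± 0.073 after LPS and 0.85 ± 0.073 after IL-4 at 2 h in the CKI libraries. Neighbouring CREs downstream of Pex5, the import receptor of peroxisomes, carried 497 and 508, and 664 and 657, in UT and 32 and 39, and 37 and 38, at 2 h. They stayed deepest at 4 h with CKIs (-2.99 and -2.83). Introns held the CREs of Foxp1, a forkhead transcription factor (795 and 821 to 37 and 27 at 2 h), and of Tbc1d22a (639 and 641 to 28 and 34) and Tbc1d1 (804 and 947 to 85 and 89), both with a Rab GTPase-activating domain. Intergenic CREs near Ivns1abp (303 and 280 to 22 and 15) and Zfp395 (1239 and 1315 to 79 and 91) were also among the 12.

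**Figure D3:**
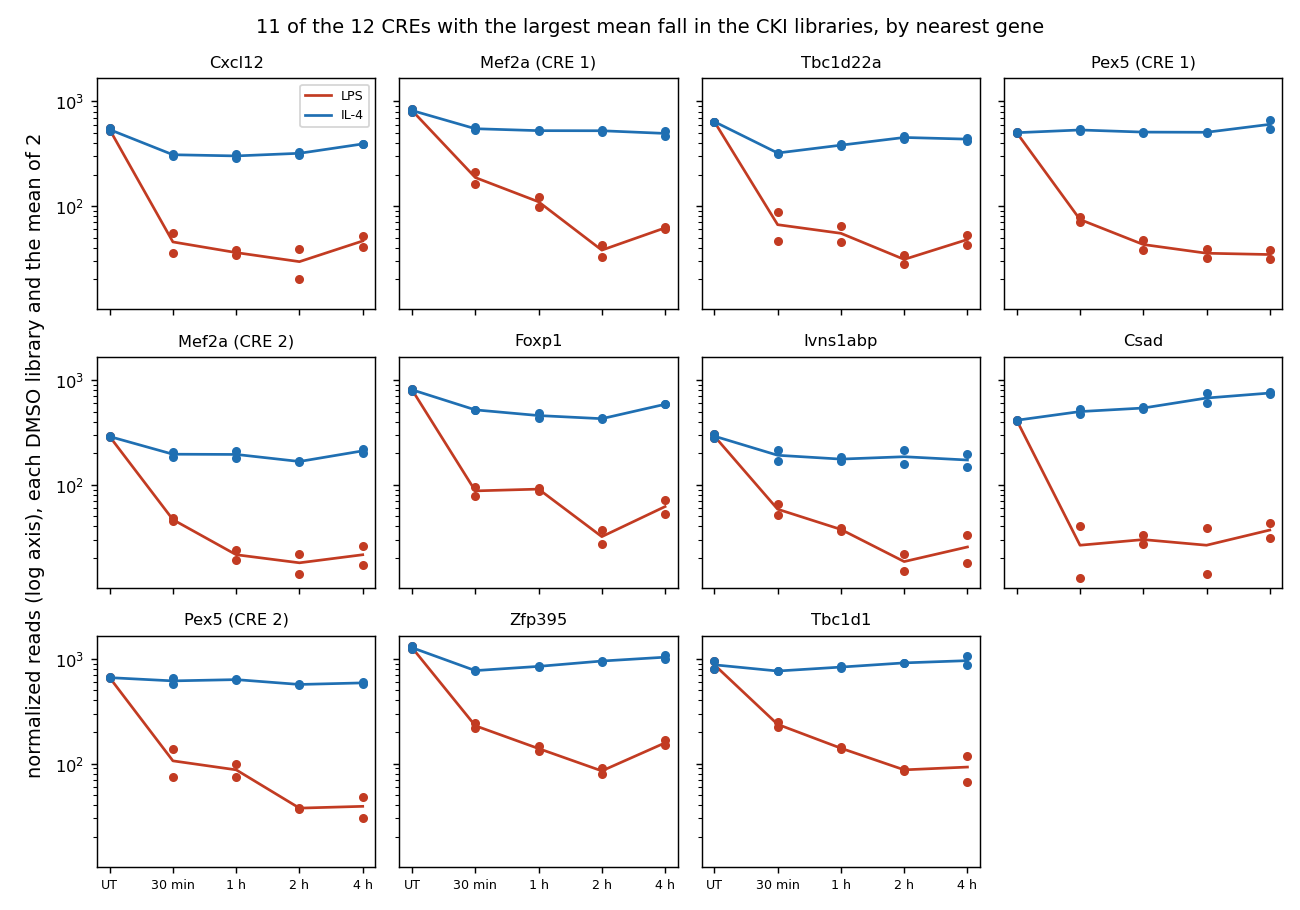
Normalized reads (log y axis) in each DMSO library (points) and their mean (lines) over time (x axis) for 11 of the 12 CREs with the largest mean fall in the CKI libraries, LPS in red and IL-4 in blue. In each panel the LPS points drop below the UT points by 30 min, and the IL-4 points of Csad lie above its UT points.

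The CREs with the most reads in UT were wide. They lay in introns of Zmiz1 (a PIAS-like coactivator, 7589 bp wide), Rab8b (a small GTPase of vesicle traffic, 8654 bp) and Abhd12 (nearest start Pygb, 3779 bp), at the promoter of Gpr146 (6942 bp) and upstream of Nek6 (4338 bp), against a median width of 1707.5 bp in the set. The Zmiz1 CRE (chr14:25469536-25477124) carried 1779 and 1742 in UT, 599 and 738 at 30 min, 339 and 284 at 2 h and 625 and 533 at 4 h of LPS. The Rab8b CRE carried 1647 and 1690 in UT and 469 and 547 at 2 h of LPS, and 2292 and 2435 at 2 h of IL-4. The Gpr146 promoter was lowest early, at 272 and 399 at 30 min from 1631 and 1526 in UT.

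At the other end, 5 CREs had the most positive mean LPS difference in the CKI libraries. They were near Ostm1, Snx13, Ajm1, Far1 and Dad1, with 46 normalized reads or fewer in each UT library with DMSO. The Ostm1 CRE carried 10 and 14 in UT and 0 to 4 in the LPS libraries with DMSO, and its CKI differences were 0.27, 0.27, 0.25 and 0.07, none of them called. At the other 4, the differences at 2 h were -0.06 (Snx13), -0.14 (Ajm1), -0.18 (Far1) and -0.19 (Dad1), and none of the 5 was called at any LPS time.

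Most CREs of the set (2165, 83.3%) were not called as different between 4 h and 30 min of LPS. The others either deepened or moved back towards UT. In the CKI libraries, 285 CREs were lower at 4 h than at 30 min of LPS (all CREs: 14.2%) and 148 were higher (15.7%). The 285 had medians of -1.04, -1.37, -1.77 and -1.75 from 30 min to 4 h, and the 148 had medians of -1.67, -1.59, -1.36 and -0.98. Both shares of the set, 11% and 5.70%, lay below those of all CREs.

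The examples at either end were picked after their values were seen. A CRE whose nearest gene is Mki67, the proliferation marker, lies 198039 bp upstream of it (chr7:135913524-135915277). It carried 491 and 430 in UT, 188 and 235 at 30 min, 76 and 90 at 1 h, 35 and 56 at 2 h and 52 and 40 at 4 h of LPS with DMSO. It deepened from -0.61 to -2.51 in the CKI libraries, a difference between 4 h and 30 min of -1.90 ± 0.076 (adjusted p = 8.32e-89). The Eps8 intron (an actin regulator; chr6:137557100-137561500) carried 1093 and 1038 in UT, 485 and 547 at 30 min and 87 and 61 at 4 h, and its CKI difference between 4 h and 30 min was -1.71 ± 0.056. A CRE downstream of Atp6v0d2, a subunit of the vacuolar proton pump (chr4:19868894-19871417), carried 654 and 625 in UT, 241 and 300 at 30 min and 62 and 44 at 4 h. At all 3 CREs the libraries at 2 h and 4 h lay below those at 30 min.

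The opposite order was seen at Vsir, which encodes the inhibitory receptor VISTA, in an untranslated exon (chr10:60370928-60372649). It carried 483 and 538 in UT, 74 and 78 at 30 min, 101 and 74 at 1 h, 85 and 97 at 2 h and 271 and 221 at 4 h with DMSO. With CKIs it went from -2.47 at 30 min to -1.02 at 4 h, a difference of 1.45 ± 0.056 (adjusted p = 1.1e-93). A CRE near Klhl25 went from 643 and 670 in UT to 91 and 88 at 30 min and 286 and 291 at 4 h. At both CREs the 4 h libraries lay between the 30 min and the UT libraries.

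After IL-4, 1601 CREs of the set (61.6%) were called at none of the 4 times in the CKI libraries, as were 67.9% of all CREs tested, and the others moved in either direction. In the CKI libraries, 206 CREs were lower than UT at 30 min of IL-4 (all CREs: 3.78%), 174 at 1 h (6.81%), 293 at 2 h (13.4%) and 256 at 4 h (11.3%). Higher were 283 (12%), 331 (11.5%), 358 (9.70%) and 343 (9.35%). The rule itself kept out CREs that fell by 1 or more after IL-4 with DMSO, which bears on the counts of lower CREs. At all 4 times, 184 CREs were higher (7.08%, all CREs: 6.14%) and 46 lower (1.77%, all CREs: 2.02%), shares close to those of all CREs. The medians of the set were -0.11, -0.04, -0.04 and -0.01.

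The direct comparison of the stimuli at matched times in the CKI libraries gave lower H3K27ac after LPS at 2375 CREs at 30 min (all CREs: 22.1%), 2494 at 1 h (22.4%), 2456 at 2 h (23.2%) and 2439 at 4 h (22.5%). No CRE of the set was higher after LPS than after IL-4 by limma, also at an unadjusted p under 0.05. The choice of the set on LPS falls makes such a call unlikely, and the share of all CREs called higher is not given here.

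Among the 184 CREs higher at all 4 times of IL-4 were those of genes known from alternative activation, named after their values were seen. Arg1 encodes arginase 1, the best known marker of that state. Its upstream CRE (chr10:24929501-24932528, 3530 bp from the start) carried 303 and 316 in UT with DMSO, 140 and 108, 112 and 114, 100 and 116, and 162 and 105 at the 4 LPS times, and 910 to 1175 in the 8 IL-4 libraries. The 3 states did not overlap. With CKIs its log2 difference at 2 h was -1.23 ± 0.059 after LPS and 1.34 ± 0.059 after IL-4, with 166 to 403 in UT, 72 to 306 after LPS and 450 to 927 after IL-4. A second Arg1 CRE, 22933 bp upstream, carried 44 and 63 in UT, 16 and 10 at 2 h of LPS and 135 and 190 at 2 h of IL-4.

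Batf3, a basic leucine zipper factor, had 2 such CREs. The stronger (chr1:191109286-191112313) carried 648 and 551 in UT, 156 and 128 at 2 h of LPS and 1034 and 1022 at 2 h of IL-4. The weaker (chr1:191114287-191115854) carried 102 and 81, then 32 and 46, then 374 and 349, with CKI differences at 2 h of -1.23 ± 0.073 after LPS and 1.48 after IL-4. At Pan3, which encodes a subunit of an mRNA deadenylase, the promoter CRE (chr5:147538548-147540799) carried 110 and 114 in UT, 33 and 44 at 2 h of LPS and 1002 and 1113 at 2 h of IL-4. A CRE in an intron of Vti1a, nearest to the start of Tcf7l2, carried 43 and 39, then 12 and 15, then 375 and 371.

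The largest IL-4 rises were at CREs nearest to Ang6 and Rnase2a, members of the RNase A family whose clustered, similar copies make read placement uncertain. The Ang6 CRE at chr14:44007313-44010735 carried 50 and 87 in UT, 2 and 14 at 2 h of LPS and 889 and 832 at 2 h of IL-4. The 46 CREs that fell after both stimuli had a median CKI difference of -1.68 after LPS and -0.67 after IL-4. Of these, a CRE in an intron of Lrrc27 (chr7:139218429-139221289) carried 254 and 291 in UT, 35 and 50 at 2 h of LPS and 146 and 172 at 2 h of IL-4.

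The 2598 CREs had 1608 nearest genes, 1078 of them with 1 CRE of the set, 427 with 2 or 3 and 103 with 4 or more. On 20 chromosomes, 36.1% of the CREs had another CRE of the set within 10 kb. Introns held 1143 CREs (44.0%, all CREs 41.4%), intergenic sequence 1017 (39.1% and 35.3%), promoters 331 (12.7% and 19.2%), untranslated exons 74 and coding exons 33. Promoters were a smaller share than among all CREs and a larger one than among 3510 CREs that gained by 1 or more at all 4 LPS times with DMSO (6.38%). The median LPS difference in the CKI libraries was alike in these classes, from -1.14 in coding exons to -1.27 in untranslated exons. The median GC content of the set was 47.2% (all CREs 46.4%) and 18.9% of bases were in repeats, as over all CREs.

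Among promoters, those of Csad, Sgsh, Trem2 and Cd300lf were among the 5 with the largest mean fall. Sgsh, the lysosomal heparan sulfamidase, carried 563 and 566 in UT, 132 and 135 at 30 min and 33 and 62 at 2 h of LPS (chr11:119354136-119356374). Trem2, a lipid receptor of macrophages and microglia, carried 1072 and 1061 in UT, 147 and 208 at 30 min, 195 and 167 at 2 h and 297 and 232 at 4 h of LPS (chr17:48345566-48348320). Its 8 IL-4 libraries ranged from 1050 to 1314. The 73 UT libraries with CKIs ranged from 614 to 1209 and the 59 LPS libraries at 2 h from 81 to 365, a difference of -2.24 ± 0.046 (adjusted p = 1.01e-192). The promoter CRE of Cd300lf, an inhibitory receptor, differed from the others in that it was high at 30 min of IL-4 (714 and 687 from 533 and 532) and low at 4 h (330 and 313).

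The nearest genes were read through their promoters too. Of 1446 genes with a distal CRE of the set, 1081 had a promoter CRE, and 132 of these promoter CREs were themselves in the set. Of the other 949 promoters, 408 (43.0%) were lower and 47 (4.95%) higher at 2 h of LPS in the CKI libraries, where 21.8% of all 10440 promoter CREs were lower and 11.5% higher. Around the 103 genes with 4 or more CREs of the set, 459 of the 1080 other CREs (42.5%) were lower and 100 (9.26%) higher at 2 h. CREs outside the set were thus called lower more often near these genes than over all CREs at 2 h, as a description without a test. They include CREs that met the LPS part of the rule with DMSO and were left out only for their fall after IL-4. At Zfp36l2 these were 17 of the 28 other CREs. Their fall after LPS with DMSO makes a lower call in the CKI libraries likely, so part of the higher share is built in. Whether the remaining CREs fell more often than all CREs was not tested.

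The CREs of a locus did not all move alike. Of 22 CREs nearest to Mef2a, 9 were in the set, all intergenic and 7509 to 112125 bp upstream of the gene (from 67379557 to 67485795 on chromosome 7). Their CKI differences at 2 h ranged from -3.46 to -0.93. The promoter CRE, not in the set, carried 841 and 813 in UT and 414 and 362 at 2 h of LPS, a CKI difference of -0.90 ± 0.045. Of the 13 other CREs, 6 were lower and 6 higher, among the latter a CRE in an intron of Mef2a (chr7:67281987-67283604) that went from 7 and 10 to 69 and 55 (CKI difference 1.48 ± 0.13). The CREs of the set lay upstream of the promoter, and all 6 that rose lay on its other side, on the side of the gene body.

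Zfp36l2, which encodes an RNA-binding protein that promotes mRNA decay, had 10 of 38 CREs in the set, its promoter among them. The promoter (chr17:84186589-84189509) carried 562 and 633 in UT, 91 and 137 at 2 h of LPS and 688 and 635 at 2 h of IL-4. A CRE 6551 bp downstream (chr17:84180099-84182694) carried 742 and 767, then 59 and 89, then 710 and 811. A further 17 of its CREs fell after LPS at all 4 times and also by 1 or more after IL-4 with DMSO, which kept them out of the set. Of the 28 other CREs, 20 were lower and 2 higher at 2 h in the CKI libraries.

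Klf4, a zinc-finger factor of monocyte differentiation and of the IL-4 response, had 9 of 34 CREs in the set, all 209099 to 581667 bp upstream. With CKIs their differences at 2 h of LPS ranged from -1.67 to -0.52, and all 9 were higher after IL-4 at 1 or more times, 5 of them at all 4. The CRE at chr4:55811045-55813853 carried 104 and 97 in UT, 4 and 21 at 2 h of LPS and 493 and 523 at 2 h of IL-4, with CKI differences of -1.22 ± 0.089 and 1.83 ± 0.089. The CRE at chr4:55814203-55817932 carried 233 and 183, then 26 and 12, then 437 and 473. The Klf4 promoter, not in the set, moved less, from 155 and 159 to 99 and 103 after LPS and 214 and 169 after IL-4.

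Mrc1, the mannose receptor and another marker of alternative activation, had 7 of 14 CREs in the set. Its promoter (chr2:14227906-14230157) carried 285 and 279 in UT, 104 and 87 at 2 h of LPS and 443 and 526 at 2 h of IL-4. Of the 7, 6 were higher at 1 or more IL-4 times, up to 1.11 at 2 h at an intronic CRE (chr2:14261442-14263139) that carried 172 and 205 in UT, 35 and 34 after LPS and 365 and 385 after IL-4.

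Cd163, the haemoglobin scavenger receptor, had 5 of its 7 CREs in the set (CKI differences at 2 h of -1.57 to -1.20), and Gpr183, the oxysterol receptor that guides immune cells, 7 of 12 (-2.08 to -1.44). Ap1b1, a subunit of the clathrin adaptor, had 8 of 9 (-1.53 to -0.53). Cebpa, a C/EBP factor of myeloid commitment, had 5 of 9, with its promoter at 358 and 388 in UT, 43 and 97 at 2 h of LPS and 616 and 506 at 2 h of IL-4. At Maf, a factor of tissue macrophages, 5 CREs 56679 to 128395 bp downstream fell (-2.40 to -1.05), while of 35 others 15 were higher and 10 lower. The strongest of those (chr8:115391700-115393317) went from 9 and 12 to 158 and 114 at 2 h (CKI difference 2.32 ± 0.11).

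By gene list, the set was read by the nearest gene of each CRE. Myeloid transcription factors had 59 of 642 CREs in the set (9.19%, all CREs 4.39%), from 17 of the 35 genes of the list. Klf4 and Mef2a held 9 each of the 59, Fli1 held 7, Rxra held 6, and Cebpa and Maf held 5 each. Of the 59, 56 were lower at all 4 times in the CKI libraries, as were 93.0% of the whole set. Beside the loci above, the Fli1 intron (chr9:32506826-32510781) carried 1217 and 1291 in UT and 252 and 255 at 2 h of LPS, and a CRE 1577 bp downstream of a Runx1 start carried 1126 and 1138, then 274 and 302. Both encode factors of haematopoiesis. Of 29 promoter CREs of the list, 12 were lower at 2 h of LPS in the CKI libraries, where 21.8% of all promoter CREs were.

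The list of receptors for chemokines, growth factors and uptake had 24 of 275 CREs in the set (8.73%), near Mrc1, Cd163, Cd300a, Csf1r, Cd300lf, Trem2, Itga6 and Mertk. None of the 8 is a chemokine receptor, and Mrc1 and Cd163 held 12 of the 24. A CRE in an intron of Csf1r, the receptor of the macrophage growth factor M-CSF, carried 659 and 591 in UT and 108 and 108 at 2 h of LPS. The list of G protein-coupled purinergic, lipid and adenosine receptors had 21 of 233 (9.01%). It includes P2rx7, which is not G protein-coupled, and Gpr183 held 7 of the 21. The Adora3 CRE (an adenosine receptor) carried 525 and 518 in UT and 122 and 108 at 2 h, and the promoter of P2rx7, the ATP-gated channel, 384 and 353, then 74 and 82 at 30 min and 156 and 144 at 2 h.

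Genes of lipid handling had 12 of 168 CREs in the set (7.14%). The promoter of Apoe, the lipid carrier (chr7:19697488-19701915), carried 763 and 771 in UT, 165 and 133 at 30 min, 104 and 133 at 2 h and 187 and 186 at 4 h of LPS. Its CKI difference at 2 h was -2.0 ± 0.043. The Lipa intron (lysosomal acid lipase, chr19:34518630-34522440) carried 957 and 983, then 236 and 222 at 2 h. Genes of lysosome and vesicle transport had 20 of 173 (11.6%), all 20 lower at all 4 times, as were 93.0% of the whole set. Snx9 held 9 of the 20 and Atp6v0d2 held 5. The CRE near Psap, the precursor of the saposins, carried 737 and 732 in UT and 126 and 128 at 2 h, and one near Snx9, a membrane-bending sorting nexin, 556 and 545, then 79 and 68 at 2 h and 67 and 58 at 4 h.

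The list of repressors and corepressors had 39 of 429 CREs in the set (9.09%). Zfp36l2, which acts on mRNA, held 10 of the 39, Tcf7l2 and Zfhx3 held 6 each and Zfp36l1 held 4. The TGF-beta and SMAD pathway had 11 of 215 (5.12%), with Tgfbi, a matrix protein, at 898 and 979, then 142 and 109 at 2 h. Near Ski, a corepressor of SMAD proteins, a CRE (chr4:155232917-155238009) carried 803 and 849, then 305 and 326 at 2 h of LPS and 1647 and 1568 at 2 h of IL-4. Cell cycle genes had 11 of 213 (5.16%). Among them was the promoter of Ccnd1, cyclin D1, at 357 and 384 in UT, 77 and 101 at 2 h of LPS and 519 and 479 at 2 h of IL-4.

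The genes of the LPS response itself had few CREs in the set. The rule asks for a fall after LPS, which makes CREs near LPS-induced genes less likely to enter, so these shares are a description. TLR4 signalling had 2 of 213 (0.939%), near Tab2, an adaptor of the kinase TAK1 (545 and 632 in UT, 104 and 123 at 2 h), and Tlr4, the LPS receptor (50 and 33, then 10 and 9). LPS-induced inflammatory genes had 4 of 274 (1.46%), all upstream of Atf3, a stress-induced repressor of inflammatory genes. One of these (chr1:191252998-191255406) carried 316 and 349 in UT, 67 and 65 at 2 h and 170 and 138 at 4 h, while a CRE 2811 bp downstream of the Atf3 start (chr1:191179738-191181320) went from 89 and 101 to 719 and 735 at 2 h. Loss and gain thus occurred around the same gene.

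Motif letters were counted in the 200 bases at the centre of each CRE, on both strands. PU.1 (GAGGAAGT), the pioneer factor of myeloid cells, was held by 11.9% of the set, 8.08% of all CREs and 5.78% of the CREs gained at all 4 LPS times. The order was the reverse for AP-1 (TGANTCA), at 10.4%, 17.3% and 23.8%. NF-kB letters (GGANTTTCC) were in 9 CREs of the set (0.346%), 1.85% of all CREs and 8.38% of those gained. The MAF site TGCTGA was in 22.1% of the set (all CREs 18.3%), CAGCTG in 16.0% (12.6%) and RUNX TGTGGT in 21.6% (18.9%). The NFI motif TTGGCA was in 11.7% (9.60%) and C/EBP TTGCNNAA in 12% (10.8%). A further 1072 CREs met the LPS part of the rule but fell by 1 or more at an IL-4 time with DMSO. Of these, 12.1% held PU.1, 12.1% AP-1 and 0.373% NF-kB. The MAF site was in 23.7% of them, CAGCTG in 17.4%, RUNX in 26.8%, NFI in 12.8% and C/EBP in 15.2%. These shares were thus not particular to the set. The letters of STAT (TTCNNNGAA, 5.97% and 6.24%), MEF2 (CTANNNNTA, 17.8% and 17.6%) and ISRE (GAAANNGAA, 7.81% and 8.06%) were about as frequent as over all CREs, and CTCF (CCACNAGG) was in 3.81% (5.50%). The remaining E-boxes CACGTG and CAGGTG (ZEB) were in 4.85% (4.16%) and 8.01% (8.64%), the nuclear receptor motif AGGTCA in 13.3% (12.7%), FOX TGTTTAC in 2.54% (2.30%) and SMAD GTCTAGAC in 10 CREs (0.385% and 0.198%). KLF/SP GGGCGGGG was in 3.23% (5.03%), ETS CCGGAAGT in 0.539% (1.26%) and EGR GCGTGGGCG in 2 CREs (0.0770% and 0.209%), and the ATF motif TGACGTCA was in 7 CREs (0.269% and 0.689%). Among distal CREs alone, KLF/SP was in 1.76% of the set and 1.73% of all, and ETS in 0.397% and 0.464%. The PU.1 and ETS motifs share the letters GGAAGT, and TTGCNNAA can overlap the MAF site. The STAT letters were in 9.24% of the 184 CREs higher at all 4 IL-4 times and in 8.70% of the 46 lower. In the windows shown above, the letters CACCTG and CAGGTG are the ZEB motif on either strand, and a shared letter string is a description and not a binding site.

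The loss was seen with every compound. Over the 225 pairs of a compound and an LPS time that had UT and LPS libraries, the median difference of the set was below 0 in 225, below -0.5 in 224 and below -1 in 202. The mean over times ranged from -1.57 with the p38 inhibitor Talmapimod, -1.55 and -1.54 with the MEK inhibitors Refametinib and Selumetinib to -0.86 with the p38 inhibitor PH797804 and -0.84 with the PI3K and mTOR inhibitor Omipalisib. Both ends of the order held p38 inhibitors. The smallest loss of a pair was -0.24, for PH797804 at 4 h, in libraries with a contrast of 3.37 and a median difference of 0.77 over all CREs. With Talmapimod all CREs had a mean of -0.74, so its place at the top goes with a shift of the whole library. With PH797804 and Omipalisib, at the other end, all CREs had means of 0.14 and 0.39, shifts in the other direction. The order is not corrected for such shifts. Across the 58 compounds, the mean LPS difference, which is negative where H3K27ac fell, had r = -0.45 (Pearson) and -0.40 (Spearman) with the contrast of their libraries. Falls were thus deeper at higher contrast, given as a description, and the part of contrast in the order of compounds was not tested.

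**Figure D4:**
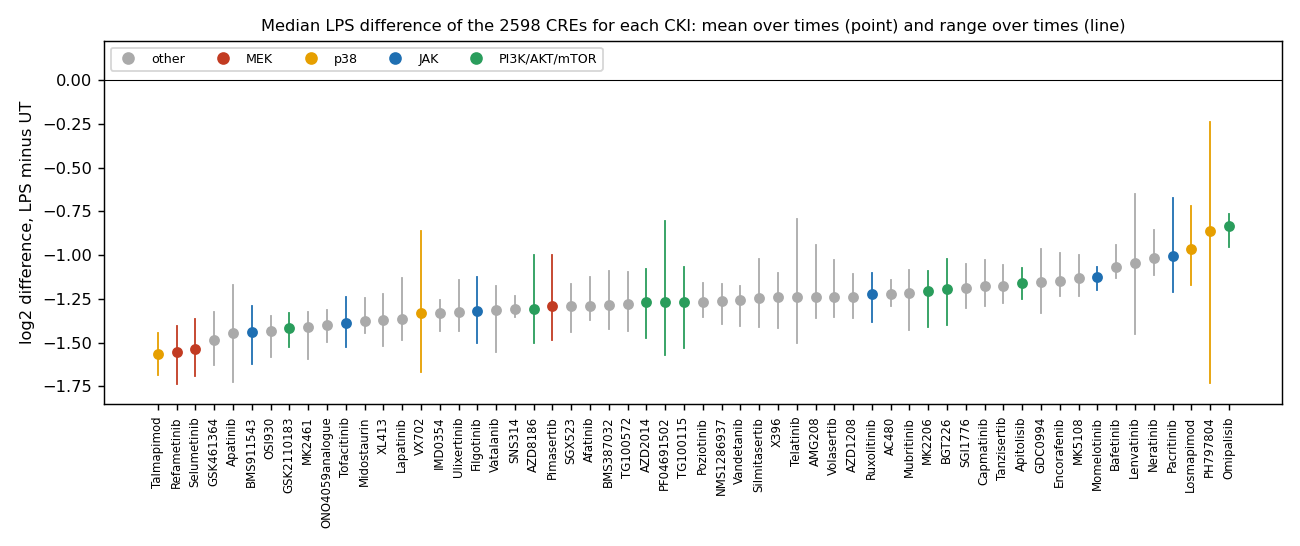
Median LPS difference of the 2598 CREs (log2, y axis) for each of 58 compounds (x axis), ordered by the mean over times. Points are the mean, lines span the times and colours give the family of the designated target. All points lie below 0, from -1.57 to -0.84.

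Families by designated target were compared in 52 compounds with UT and all 4 LPS times, with 1 value per compound: 3 MEK, 3 p38, 6 JAK and 8 PI3K, AKT or mTOR inhibitors, each against 32 others. Compounds were used at different concentrations, and some were chosen in the study for another kinase than the designated one. No CRE of the set differed by limma (adjusted p under 0.05 and beyond 0.5) in any family, and over all CREs the calls were 0%, 0.00676%, 0% and 0%. At an unadjusted p under 0.05, 287, 237, 53 and 314 CREs of the set differed (11%, 9.12%, 2.04% and 12.1%, against 4.09%, 11.6%, 3.09% and 11.4% of all CREs). The compound means were -1.55 to -1.29 with MEK inhibitors, -1.57 to -0.86 with p38, -1.44 to -1.01 with JAK, -1.42 to -0.84 with PI3K, AKT or mTOR inhibitors and -1.49 to -1.02 with the others. These ranges overlapped. Without VX702, which leaves 2 p38 inhibitors, 30 CREs of the set differed in the p38 comparison, where 722 of all CREs (1.22%) did, a share slightly above that of the set. The median difference of the set against the others was -0.21 for MEK, with a median SE of 0.23, and within 0.04 of 0 for the other families, so differences of that size were not detectable with these numbers of compounds.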

How the data were processed

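H3K27ac ChIP-seq was measured in BMDMs. The authors trimmed single-end reads to 51 bases, mapped them to mm10 and counted reads at CREs from ATAC-seq peaks; the submitters' processing notes name Bowtie and SAMtools. The table deposited by the authors gives read counts after scaling with invariant peaks and rounding, treated here as a score, so count models were not used. Depth is not given by the scaled totals.

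Groups came from the sample labels. The members and the gene lists were chosen with earlier results of these data known. DMSO differences chose the CREs and were not tested. The CKI libraries were fitted with limma 3.58.1 in R 4.3.3 (trend, log2(value + 5), condition and compound as terms) over 59167 CREs with a mean of at least 10, with Benjamini-Hochberg adjustment over all of them, and called at 0.01 and a log2 difference beyond 0.5. The cut of 0.5 was set below the 1 of the study, since a lower contrast of the CKI libraries was already known. The scripts were tested on simulated data. CREs were given the nearest protein-coding start of GENCODE vM21, and a promoter CRE has its centre within 1 kb of one. Sequences are from the mm10 reference.

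Named CREs were the 12 with the largest mean CKI fall among those lower at all 4 times, up to 4 per gene list and 5 overall by UT value, the 3 nearest to the rule on either side, genes nearest to 4 or more, the 5 most positive and the 5 promoters with the largest fall. A few items that these rules name are not reported here. Others are said to be chosen after their values were seen. Alternatives are a pseudocount of 1, no filter, quantile normalization, other model terms, a stricter cut and libraries left out.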

Additional observations from a re-analysis of the deposited data

How the results depend on the processing

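The choice of the CREs depended on the scaling and on replicate agreement. The rule gave 2598 CREs. It gave 1685 after quantile normalization (1449 of them shared) and 1523 under a replicate block, where same-numbered replicates had to meet it in both pairs. The replicate numbers did not pair the samples, since deviations of same-numbered DMSO libraries had r from -0.087 to 0.066 over 36 pairs of groups. Leaving out a replicate gave 2268 and 2412, and a pseudocount of 1 gave 2797.

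Under the alternatives, 153 counts were within 1.5 times the value reported and 18 were not. Counting only differences beyond 1 left 0, 1, 14 and 5 CREs lower and 84, 99, 113 and 97 higher after IL-4 from 30 min to 4 h, 1447 lower after LPS than after IL-4 at 30 min, and 29 lower and 14 higher at 4 h than at 30 min of LPS. Quantile normalization gave 315 CREs lower at 30 min of IL-4. It moved the median of all CREs after LPS from between 0.04 and 0.12 to between -0.02 and 0.02, and that of the set to between -1.27 and -1.07. No called direction was reversed. Of 88 named CREs, 11 were no longer called at 2 h of LPS under the cut of 1.

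The p38 comparison gave 0 CREs of the set, and 5 with a pseudocount of 1, 4 after quantile normalization and 1 with the block of compounds as a term. Leaving out 1 compound gave 0 to 30, the highest without VX702 (all CREs: 1.22%). The comparison of 4 h with 30 min, and the alternatives without the 30 min library of PH797804 and without the libraries of low contrast, were added after seeing the data. CREs with few reads limit what can be called: of the 654 CREs with the lowest values in UT, 495 were lower at all 4 LPS times.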
